A study of Mus musculus with 134 samples.

Results

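Mammary tumors of the mouse were sorted by the signal of 4 salivary gland genes, and 20 tumors with a high signal were compared with 67 tumors with a low one. The value of a tumor was the mean log2 signal of Bpifa2, Smr3a, Amy1 and Cst10. The 20 tumors with the highest value and the 67 with the lowest were taken from 134, and the 47 between them entered no main comparison. Because the tumors were selected on these 4 genes, their levels are given as a description and were not tested. Genes that follow the 4 markers on the same arrays were bound to differ between the tumor sets, and every test of another gene has to be read with that in mind.

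All 134 tumors arose in females of 1 backcross that carried the polyoma middle T antigen (PyMT) under control of the MMTV (mouse mammary tumor virus) long terminal repeat, a sequence used to drive oncogenes in the mammary epithelium. The mothers of the F1 generation were MOLF/EiJ and the fathers MMTV-PyMT, F1 sons with the transgene sired litters with FVB/NJ mothers, and their PyMT+ daughters (N2) gave the tumors. Each tumor came from a different mouse, no animal was treated, ages are not given in the sources used here, and tumor RNA was hybridised to 1 Mouse Gene 1.0 ST array per animal. The 20 tumors and the 67 tumors share all of these features and were chosen by the marker value alone. The mice of the backcross also differ from each other in inherited alleles, which were not examined here. Mice of the study developed tumors in several mammary glands, and the labels do not say which gland was sampled.

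The salivary glands of the mouse are the parotid, the submandibular and the sublingual gland, and they lie in the neck close to the mammary glands nearest the head. Their acinar cells secrete digestive enzymes, antimicrobial proteins, mucins and proline-rich proteins, and their ducts in the submandibular gland secrete kallikreins and growth factors. Of the 4 markers, Bpifa2 is the parotid secretory protein, Amy1 is the salivary amylase, Smr3a is a small secreted salivary protein and Cst10 encodes a cystatin, a type of cysteine protease inhibitor. In bulk RNA, more cells of a type and more RNA per cell cannot be told apart.

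The start regions of the 4 markers and of Chia1, the gene with the largest difference outside the markers, are shown because these 5 genes were all high in the same 9 tumors. Each line gives 100 bases before and 20 bases after a start site, 5′ to 3′ on the strand of the gene, from RefSeq on GRCm38.p6, and capitals mark the letters TATAA or, on the other strand, TTATA. The coordinates are those of the 300-base window that was searched.
Bpifa2, chr2:154008026-154008325, plus strand: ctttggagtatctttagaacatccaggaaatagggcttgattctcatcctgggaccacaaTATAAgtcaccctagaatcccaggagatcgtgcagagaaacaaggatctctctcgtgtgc
Smr3a, chr5:88002275-88002574, plus strand: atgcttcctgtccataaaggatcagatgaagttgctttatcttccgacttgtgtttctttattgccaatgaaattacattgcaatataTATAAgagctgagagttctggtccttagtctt
Amy1, upstream start, chr3:113577701-113578000, minus strand: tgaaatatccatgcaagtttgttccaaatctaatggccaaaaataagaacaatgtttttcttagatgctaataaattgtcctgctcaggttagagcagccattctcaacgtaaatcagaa
Amy1, downstream start, chr3:113574713-113575012, minus strand: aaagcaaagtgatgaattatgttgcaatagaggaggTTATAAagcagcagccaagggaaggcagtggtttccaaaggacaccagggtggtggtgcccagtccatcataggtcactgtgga
Cst10, chr2:149404999-149405298, plus strand: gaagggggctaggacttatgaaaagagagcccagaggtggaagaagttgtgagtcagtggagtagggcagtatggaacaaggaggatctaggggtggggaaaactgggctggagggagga
Chia1, chr3:106113132-106113431, plus strand: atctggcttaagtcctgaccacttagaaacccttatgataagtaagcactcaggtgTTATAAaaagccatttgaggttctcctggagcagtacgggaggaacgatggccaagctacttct
The letters TATAA stood 40 bases before the start of Bpifa2 and 12 bases before that of Smr3a, and the overlapping pair TTATAA began 44 bases before that of Chia1. TATAA or TTATA is present in 24.9% of 32851 promoter windows of this length, and the Cst10 window and the upstream Amy1 window do not hold it. The E-box letters CATATG, found in 3.91% of windows, and CAGCTG, found in 16.3%, were absent from all 6 windows. These are matches of letters only. Which start of Amy1 was used in the tumors was not measured.

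The marker value fell into a high range and a low tail. It ran between 5.52 in tumor 111 and 12.44 in tumor 4 among the 20 tumors, and between 4.58 in tumor 103 and 4.86 in tumor 57 among the 67. The first tumor outside the 20, tumor 6, had 5.44, and the first outside the 67, tumor 23, had 4.86. The lower edge of the 20 therefore does not fall in a gap. A gap was present inside the 20: in 9 tumors (4, 26, 42, 72, 75, 84, 88, 113 and 127) the value was 9.81 or higher, and in the other 11 it was 6.86 or lower.

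The 9 tumors had all 4 markers above the detection floor of 5.71, the 95th percentile of the mean log2 levels of 1194 odorant and pheromone receptor genes. Bpifa2 had a lowest value of 12.65, a median of 13.41 and a highest of 13.59 in the 9 tumors. Smr3a ran between 8.95 and 11.88 with a median of 11.18, Amy1 between 9.05 and 12.46 with a median of 11.28, and Cst10 between 8.44 and 12.01 with a median of 10.94. In the 67 tumors the medians were 5.02 for Bpifa2, 4.56 for Smr3a, 4.85 for Amy1 and 4.51 for Cst10, and 1 of the 67 had any marker above the floor, Bpifa2 at 5.72. These 9 tumors were set apart after their values had been seen, so they were described and not tested.

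In the other 11 tumors the markers did not rise together. Bpifa2 was high with the other 3 markers at or near the floor in tumors 101 (10.70), 79 (10.30), 89 (9.82), 76 (9.46), 96 (8.96), 125 (8.28) and 111 (8.01). Tumor 101 was the only one of these with Amy1 above the floor, at 6.12. Smr3a reached 7.53 in tumor 30 and 6.08 in tumor 90, where Bpifa2 was at 6.81. Smr2, a paralog of Smr3a, had 6.69 and 6.90 in these 2 tumors, against a median of 4.19 and a highest of 6.60 in the 67. Its highest levels of all tumors were in tumors 37 (8.57), 99 (7.98) and 77 (7.82) of the 47. Smr3a was at 4.85, 6.24 and 4.57 there, so high Smr2 was also found without Smr3a.

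Tumors 73 and 94 entered the 20 through Amy1 alone. Amy1 was at 8.74 in tumor 73 and 8.12 in tumor 94, while Bpifa2 was at 4.80 and 4.99 and Cst10 at 4.35 and 4.85 in these tumors. Both held the highest levels of white adipocyte genes of the 134 tumors. Adiponectin (Adipoq), the hormone of fat cells, was at 11.24 in tumor 73 and 10.64 in tumor 94, against a lowest of 5.16, a median of 5.90 and a highest of 7.80 in the 67 tumors. The mean level of 11 white adipocyte genes was 11.33 in tumor 73 and 11.02 in tumor 94, and tumor 61, one of the 47, came next with 10.67 and had Amy1 at 7.73. The label of a tumor with salivary gland genes therefore does not hold for tumors 73 and 94, and each main count is given with and without them.

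**Figure D1:**
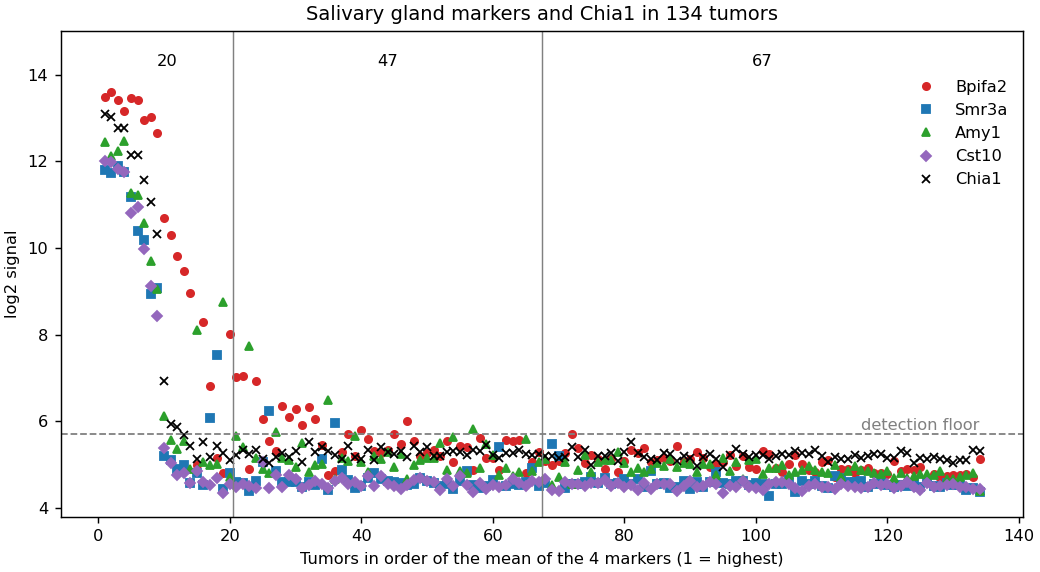
Log2 signal of the 4 markers and of Chia1 (vertical axis) in 134 tumors ordered by the mean of the markers, with the highest on the left (horizontal axis); vertical lines separate the 20, the 47 and the 67 tumors, and the dashed line is the detection floor of 5.71. All 5 genes were high in the first 9 tumors, and in the next 11 mostly Bpifa2 was.

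**Figure D2:**
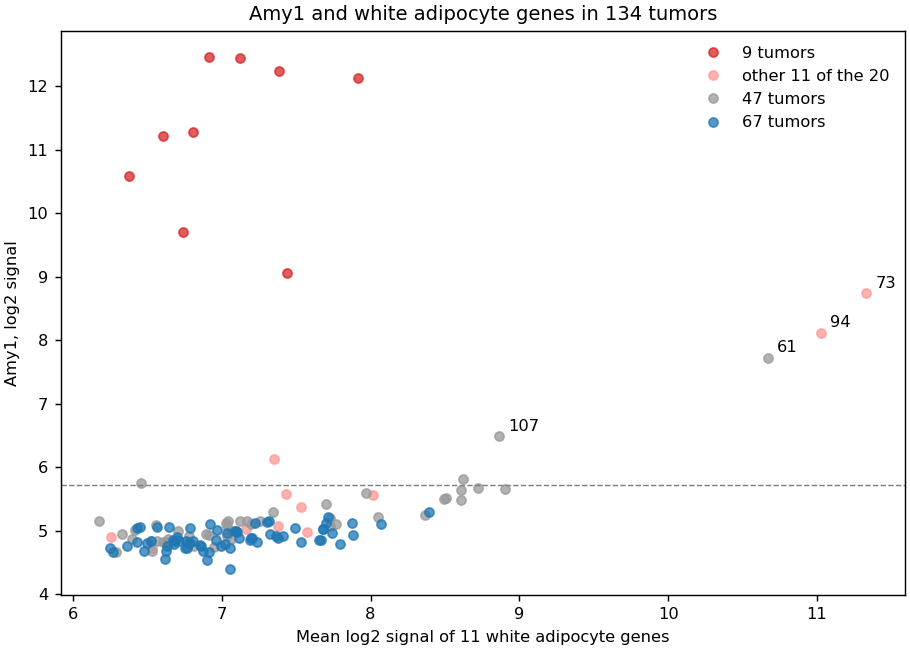
Log2 signal of Amy1 (vertical axis) against the mean log2 signal of 11 white adipocyte genes (horizontal axis), 1 point per tumor, with the 9 tumors, the other 11 of the 20, the 47 and the 67 in separate colors and the detection floor as a dashed line. The 9 tumors had Amy1 between 9.05 and 12.46 at adipocyte levels of 7.92 or less, whereas tumors 73, 94 and 61 had high values on both axes.

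The label of a tumor without salivary gland genes was checked in the same way, and single tumors of the 67 went against it. Tumor 128 had the highest level of all 134 tumors for 3 of 16 other acinar genes: Mucl2, a mucin-like secreted protein, at 12.81, Prol1, the submandibular mucin, at 10.83, and Smgc, submandibular gland protein C, at 8.91. The medians of the 67 were 4.38, 4.25 and 4.16 for these genes. It also had the highest level of 5 of 16 duct genes, all kallikreins of the Klk1b cluster, among them Klk1b22 at 8.52 (median of the 67, 4.68) and Klk1b5 at 7.42 (median of the 67, 4.93). The Klk1b genes are close copies whose probe sets may share signal. None of the 9 tumors had Smgc or Mucl2 above the floor, with highest values of 4.25 and 4.95. Tumors 7, 102 and 12, also of the 67, had the 3 highest levels of Dcpp2 of all 134 tumors, at 9.97, 9.06 and 8.41. Dcpp2 is a demilune cell and parotid protein, its median in the 67 was 4.26, and it shares close copies with Dcpp1 and Dcpp3, so their probe sets may share signal. Over all 16 acinar genes, the mean level was 7.61 in tumor 128 and 7.00 in tumor 7, within the range of the 9 tumors, 6.18 to 7.68. The 4 markers thus did not find every tumor with high levels of genes that salivary glands secrete.

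The comparison of the 20 tumors with the 67 asked which other genes went with the markers. By limma, 209 of 19934 genes were higher in the 20 tumors (1.05%) and 86 were lower (0.431%) at an adjusted p under 0.05. Most of these calls were lost without tumors 73 and 94. Of the 209 higher genes, 112 had their highest level of all tumors in 1 of these 2 tumors, and of the 86 lower genes, 58 had their lowest there. Without tumors 73 and 94, 18 genes were higher (0.0903%) and 1 was lower (0.00502%), and all 19 were among the calls of the full comparison. Without tumor 128 the counts were 213 higher and 87 lower, and without tumors 73, 94 and 128 they were 18 and 1. Without tumors 7, 12, 102 and 128 they were 200 higher and 94 lower, and without tumors 73 and 94 as well 18 and 3, where 15 of the 18 were the same genes. The share of genes with an unadjusted p under 0.05 was 16.8% of all genes tested (3341 of 19934), and 8.71% without tumors 73 and 94.

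Chia1, the acidic mammalian chitinase that mice secrete from salivary gland and stomach, showed the largest difference. It had a lowest value of 5.12, a median of 6.43 and a highest of 13.10 in the 20 tumors, against 4.95, 5.20 and 5.53 in the 67. In 14 of the 20 tumors it was above every tumor of the 67. The highest of the 67 lies below the floor of 5.71, and not all of the 14 passed the floor. All of the 9 tumors were at 10.32 or higher, and tumor 101 followed with 6.92. The log2 difference was 3.33 ± 0.40 (SE; adjusted p = 3.3e-08), and 3.69 ± 0.40 without tumors 73 and 94 (adjusted p = 3.9e-10). Chia1 was also the 1 gene that passed a rank-sum test per gene (adjusted p = 0.00548).

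The list of salivary acinar secretions, written with earlier results known and without the 4 markers, had 16 measured genes of 21. In the 20 tumors 4 of them were higher and 0 lower, against 1.05% and 0.431% of all genes. The same 4 passed without tumors 73 and 94, where 0.0903% of all genes were higher. The median difference over the list was 0.22 (0.31 without the 2 tumors), against -0.01 over all genes tested. The 4 genes were Pip, Dnase1, Prpmp5 and Lpo.

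Pip, the prolactin-inducible protein of salivary, lacrimal and other exocrine glands, had a lowest value of 4.34, a median of 6.80 and a highest of 11.71 in the 20 tumors, against 4.38, 4.54 and 11.55 in the 67. The groups overlapped, and the highest of the 67 was tumor 128. The log2 difference was 2.04 ± 0.43 (adjusted p = 0.00967), and 2.14 without tumor 128 (adjusted p = 0.00253). Leaving out the highest tumor of the 67 was bound to enlarge the difference, so the second value is no separate support.

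Dnase1, a secreted deoxyribonuclease, had a lowest value of 4.85, a median of 5.26 and a highest of 10.10 in the 20 tumors, against 4.90, 5.11 and 5.45 in the 67. All of the 9 tumors, and none of the other 11, lay above the highest of the 67. The log2 difference was 1.38 ± 0.23 (adjusted p = 0.000564).

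Prpmp5, a proline-rich salivary protein whose family has close copies, ran between 3.79 and 11.16 with a median of 3.99 in the 20 tumors, against 3.83 to 4.43 with a median of 3.97 in the 67. It was above the highest of the 67 in 7 tumors, all among the 9, and the log2 difference was 1.25 ± 0.26 (adjusted p = 0.00967). Lpo, the lactoperoxidase of saliva and milk, ran between 5.59 and 9.95 with a median of 6.51 in the 20 tumors, against 5.60 to 7.55 with a median of 6.20 in the 67. Its log2 difference was 0.81 ± 0.19 (adjusted p = 0.0166), and 6 tumors lay above the highest of the 67. For these 3 genes no tumor outside the 9 lay above the 67, and the medians of the 20 and the 67 were close.

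The other 12 acinar genes did not pass the test. Dcpp1, a demilune cell and parotid protein with close copies, was at 10.15 or higher in the 9 tumors, but reached 12.32 in the 67 as well, where its median was 8.47. Its difference was 1.32 ± 0.43 (adjusted p = 0.0911), and 1.48 without tumors 7, 12, 102 and 128 (adjusted p = 0.0478), or 1.78 without tumors 73 and 94 as well (adjusted p = 0.0519). Tumors 7, 12 and 102 were left out after their high Dcpp2 was seen, and had Dcpp1 at 12.32, 11.63 and 11.76. Leaving them out was thus bound to raise the Dcpp1 difference, and the smaller p is no separate support. Car6, the secreted carbonic anhydrase of saliva, was above the floor in all tumors, with a lowest value of 6.90, a median of 11.46 and a highest of 12.70 in the 20, against 8.19, 10.86 and 12.63 in the 67. The lowest value was that of tumor 73. Smgc and Muc19, which encode secreted proteins of other salivary cells, were below the floor in all 20 tumors.

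**Figure D3:**
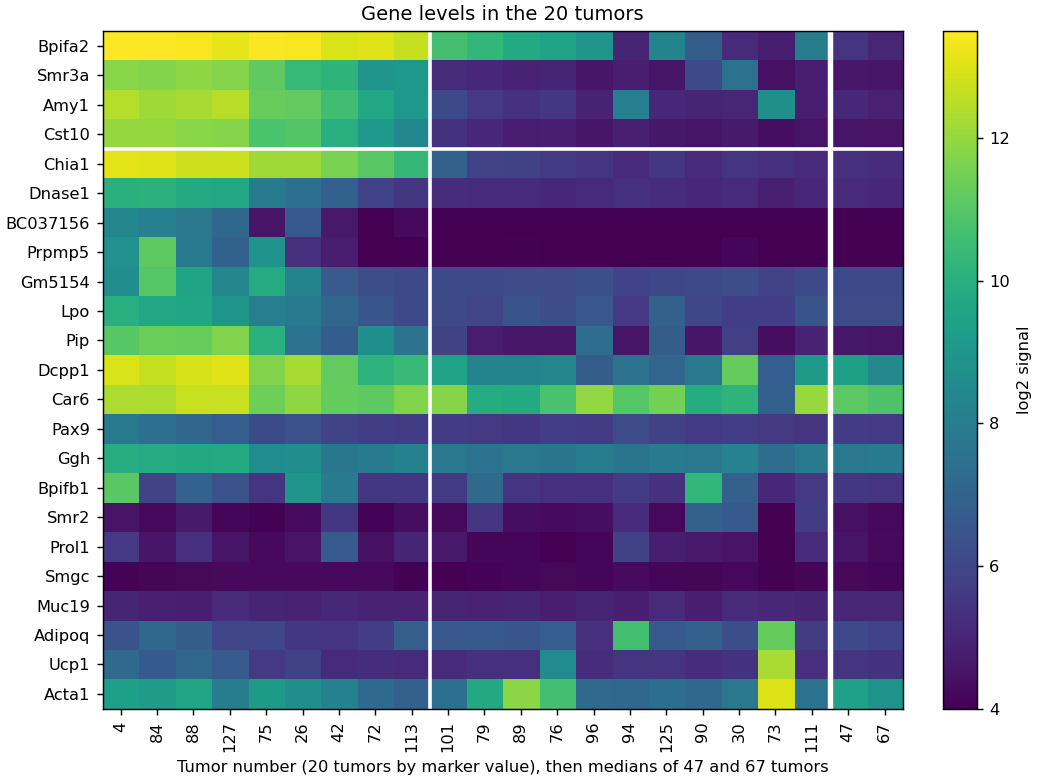
Log2 signal (color) of 23 genes (rows) in the 20 tumors ordered by marker value from left to right, followed by the medians of the 47 and the 67 tumors; white lines separate the 4 markers from the other genes, the 9 tumors from the other 11, and the 20 tumors from the medians. Chia1, Dnase1 and Lpo were brightest in the tumors with the highest marker values, Smgc and Muc19 were dark throughout, and Adipoq stood out in tumors 94 and 73.

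Genes outside the list that were higher with and without tumors 73 and 94 included further secreted proteins. BC037156, named FDC-SP in RefSeq, had a lowest value of 3.79, a median of 3.92 and a highest of 8.35 in the 20 tumors, against 3.69, 3.83 and 3.99 in the 67. All of the 9 tumors and none of the other 11 were above the highest of the 67, although only 5 of them passed the floor, and the log2 difference was 1.06 ± 0.20 (adjusted p = 0.00251). Bpifb1, a secreted relative of Bpifa2, differed by 1.00 ± 0.23 (adjusted p = 0.0155), and its highest values were 11.05 in tumor 4 and 10.27 in tumor 90. Odam, a secreted protein first known from enamel-forming cells, differed by 0.53 ± 0.14 (adjusted p = 0.0385), and 2 tumors lay above the highest of the 67. Its mean was below the floor in both groups, at 5.17 in the 20 and 4.63 in the 67.

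Odam, BC037156 and Smr3a lie in 1 stretch of chromosome 5 that also holds the caseins. In RefSeq order, 18 measured genes run there between Csn1s1 and Jchain. Smr3a, as a marker, was not tested, and of the others Odam and BC037156 were the 2 that passed the test, both higher. Over all genes tested 1.05% were higher and 0.431% lower. The stretch was chosen after its values were seen, so the count is a description. The caseins on both sides of them did not: Csn3 differed by -0.09 (adjusted p = 0.308) and Csn1s1 by -0.94 (adjusted p = 0.158). The other measured genes of the stretch did not pass the test either.

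Pax9, a transcription factor of the pharyngeal pouches, teeth and oral epithelium, was also among the 18 genes. It had a lowest value of 5.48, a median of 5.77 and a highest of 7.83 in the 20 tumors, against 5.34, 5.63 and 5.87 in the 67. Of the 8 tumors above the highest of the 67, 7 were among the 9, and the other was tumor 94 at 6.16. The log2 difference was 0.46 ± 0.09 (adjusted p = 0.00251).

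Ggh, the lysosomal and secreted gamma-glutamyl hydrolase, was above the floor in all tumors. It ran between 7.38 and 9.92 with a median of 7.88 in the 20 tumors, against 7.05 to 8.44 with a median of 7.86 in the 67. Its 6 values above the highest of the 67 were all in the 9 tumors, and the log2 difference was 0.48 ± 0.12 (adjusted p = 0.0219). St3gal6, a sialyltransferase, differed by 0.63 ± 0.12 (adjusted p = 0.00493) with its highest value, 10.06, in tumor 73, and by 0.42 without tumors 73 and 94 (adjusted p = 0.0216).

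Gm5154, an RNA gene of no stated function, differed by 1.01 ± 0.19 (adjusted p = 0.00251). The remaining genes of the 18 differed by 0.42 or less. Rassf2, which encodes a RAS association domain protein, differed by 0.42, Ankrd44, an ankyrin repeat protein, by 0.28, and the kinase Camk1d by 0.24. The 1 lower gene, Maco1, which encodes macoilin, ran between 8.20 and 8.64 with a median of 8.42 in the 20 tumors, against 8.31 to 8.94 with a median of 8.59 in the 67 (log2 difference -0.16 ± 0.03, adjusted p = 0.00306). These groups overlapped broadly.

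**Figure D4:**
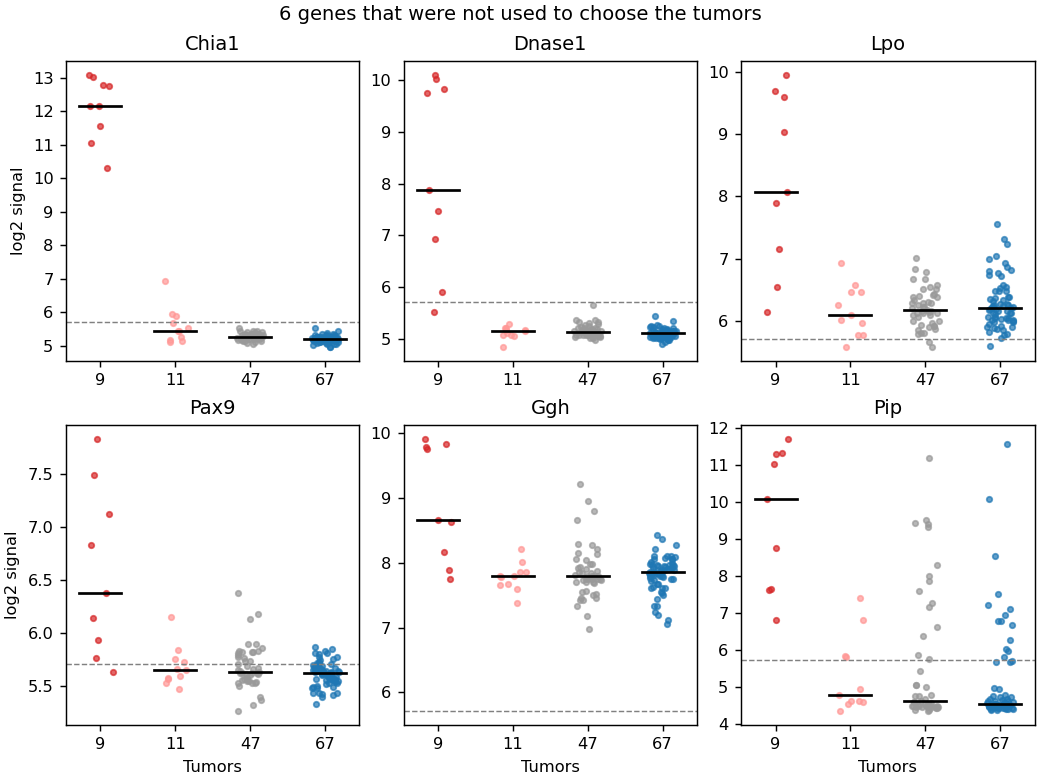
Log2 signal (vertical axes) of 6 genes in the 9 tumors, the other 11 of the 20, the 47 and the 67 (horizontal axes), with 1 point per tumor, a bar at the median and a dashed line at the detection floor where it falls in the range. Chia1 and Dnase1 in the 9 tumors lay above all of the 67, Pax9 and Ggh did so in part, and Pip was high in single tumors of every group.

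The other parts of a salivary gland were represented by 2 lists, and neither had a gene that passed limma's test. Of 15 measured acinar regulators and ion transport genes, 0 passed (3 at an unadjusted p under 0.05, against 16.8% of all genes, 0 without tumors 73 and 94, and 0 by the rank-sum test), and their median difference was -0.04. Most of them were well expressed in every tumor. Aqp5, the water channel of acinar cells, had medians of 11.24 in the 20 and 11.20 in the 67, and Bhlha15, a transcription factor of secretory cells, had 8.79 in the 20 and 8.72 in the 67. Of 16 measured duct genes, 0 passed, also at an unadjusted p under 0.05 and by the rank-sum test. Lists of 9 lacrimal gland genes and 12 exocrine pancreas genes gave the same counts of 0, unadjusted and by rank-sum. The pancreatic amylases could not be set beside Amy1, because each of their probe sets names several genes.

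Cells of lymph nodes were covered by lists of B cell and lymphoid stroma genes and of T cell genes. Of 10 measured genes in the first list, Ccl19, a chemokine of lymphoid stroma, passed, and 1.05% of all genes were higher. It had a lowest value of 5.80, a median of 6.17 and a highest of 8.09 in the 20 tumors, against 5.68, 6.00 and 7.31 in the 67, with a log2 difference of 0.40 ± 0.09 (adjusted p = 0.0162). The B cell gene Cd79a differed by 0.28 (adjusted p = 0.0948) and was below the floor on average in both groups. Of 8 T cell genes, the receptor component Cd3e passed, with medians of 7.17 in the 20 and 7.01 in the 67 and a log2 difference of 0.24 ± 0.06 (adjusted p = 0.0166). Cd83, a surface protein of activated dendritic and B cells, differed by 0.18 ± 0.04 (adjusted p = 0.00967). Ccl19, Cd3e and Cd83 also passed without tumors 73 and 94, where 0.0903% of all genes were higher. At an unadjusted p under 0.05 stood 8 of the 10 B cell and lymphoid stroma genes and 7 of the 8 T cell genes, and both counts were the same without the 2 tumors, against 16.8% of all genes with them and 8.71% without. The median differences were 0.20 and 0.11 over these lists. The mean level of the B cell list ran between 5.03 and 6.50 in the 20 tumors, against 5.01 to 6.51 in the 67, so the whole range was shared. Its medians were 5.24 and 5.19. Among the 20 it was highest in tumors 113 (6.50), 101 (6.43), 4 (6.04) and 88 (5.92). The T cell list was highest in the same tumors, at 6.19, 6.22, 5.92 and 5.95. High list means were thus found in few of the 20, and tumors 101 and 113 had correlated profiles, as given below.

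Muscle and fat lie next to both kinds of gland, and no gene of their lists passed limma's test. Of 17 fast skeletal muscle genes, 0 passed (0 at an unadjusted p under 0.05 and 0 by the rank-sum test), and their median difference was 0.01, or -0.23 without tumors 73 and 94. Acta1, the skeletal muscle actin, had medians of 8.07 in the 20 and 8.82 in the 67, and its highest value, 13.01, was in tumor 73. None of 11 white adipocyte genes passed either, although 9 had an unadjusted p under 0.05 (81.8%, against 16.8% of all genes, with 0 by the rank-sum test). Their median difference was 0.50, and 0.10 without tumors 73 and 94, with 0 genes at an unadjusted p under 0.05.

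Genes of body position were read in 3 Hox lists and a list of limb and trunk regulators. Hox genes encode transcription factors that pattern the body from head to tail. Of 37 measured Hox genes, 0 passed limma's test, 10 had an unadjusted p under 0.05 (27.0%, against 16.8% of all genes), and 0 passed by the rank-sum test. The mean level was above the floor for 15 of them in the 20 tumors and 12 in the 67. The largest absolute difference was 0.25, and without tumors 73 and 94 it was 0.15, with 3 genes at an unadjusted p under 0.05 (8.11%, against 8.71% of all genes). Hoxc6, a gene of the thoracic region, had a lowest value of 4.86, a median of 5.31 and a highest of 8.15 in the 20 tumors, against 4.95, 5.30 and 5.66 in the 67. Its 2 values above the floor in the 20 were those of tumors 73 and 94. Hoxa5, another gene of the neck and thorax, followed the same pattern, with a median of 5.13 and a highest of 7.50 in the 20, against 5.07 and 5.47 in the 67. Hox levels near the floor limit what these arrays could resolve.

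Of 12 limb and trunk regulators, Meis1 and Meis2, which encode DNA-binding partners of Hox proteins, were higher in the 20 tumors. The share of higher genes over all genes was 1.05%. Meis1 had a lowest value of 5.85, a median of 8.70 and a highest of 10.03 in the 20, against 5.69, 7.14 and 10.10 in the 67. The groups shared their whole range, and the log2 difference of 1.05 ± 0.28 (adjusted p = 0.038) had an adjusted p of 0.149 without tumors 73 and 94 at nearly the same size, 1.10. Meis2 differed by 0.41 ± 0.09 (adjusted p = 0.00967), and by 0.26 without the 2 tumors (adjusted p = 0.149). Tbx5, a forelimb regulator, was below the floor on average in both groups.

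Fibroblast genes passed only with tumors 73 and 94 in the comparison. Of 10 fibroblast genes, 6 were higher in the 20 tumors (Col1a1, Col3a1, Col6a1, Lum, Pdgfra and Sparc), against 1.05% of all genes. Without the 2 tumors 0 passed, and 9 had an unadjusted p under 0.05, against 8.71% of all genes. Lum, the collagen-binding lumican, had medians of 7.56 in the 20 and 7.02 in the 67 and differed by 0.67 ± 0.16 (adjusted p = 0.0195), and by 0.57 without tumors 73 and 94 (adjusted p = 0.169). Dpt, a matrix protein, differed by 0.87 ± 0.25 (adjusted p = 0.0457) with its highest value in the 20, 11.14, against a highest of 9.24 in the 67. Its difference was 0.58 without the 2 tumors (adjusted p = 0.417).

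Of 11 luminal epithelium genes, 1 was lower in the 20 tumors, against 0.431% of all genes. This was Krt8, a luminal keratin, which had a lowest value of 10.56, a median of 12.13 and a highest of 12.52 in the 20 tumors, against 11.54, 12.29 and 12.67 in the 67, and fell by 0.35 ± 0.08 (adjusted p = 0.0166). Without tumors 73 and 94 the difference was -0.23 (adjusted p = 0.24). Of 9 hypoxia genes, the glucose transporter Slc2a1 (-0.54, adjusted p = 0.00967) and the lactate dehydrogenase Ldha (-0.20, adjusted p = 0.0443) were lower, against 0.431% of all genes. Without tumors 73 and 94 the differences were -0.43 for Slc2a1 (adjusted p = 0.132) and -0.18 for Ldha (adjusted p = 0.206). At an unadjusted p under 0.05 stood 7 of the 9 genes with these tumors (77.8%, against 16.8% of all genes). Without them 6 did (66.7%, against 8.71% of all genes). Peg10, an imprinted gene derived from a retrotransposon, had the most negative difference. It ran between 5.74 and 7.86 with a median of 6.55 in the 20, against 5.72 to 11.33 with a median of 8.05 in the 67, and fell by 1.39 ± 0.39 on the log2 scale (adjusted p = 0.0445). Without tumors 73 and 94, which had 7.41 and 7.52, the difference was larger, -1.48, with an adjusted p of 0.149. The low values were common to both groups, and the values above 7.86 were absent from the 20.

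**Figure D5:**
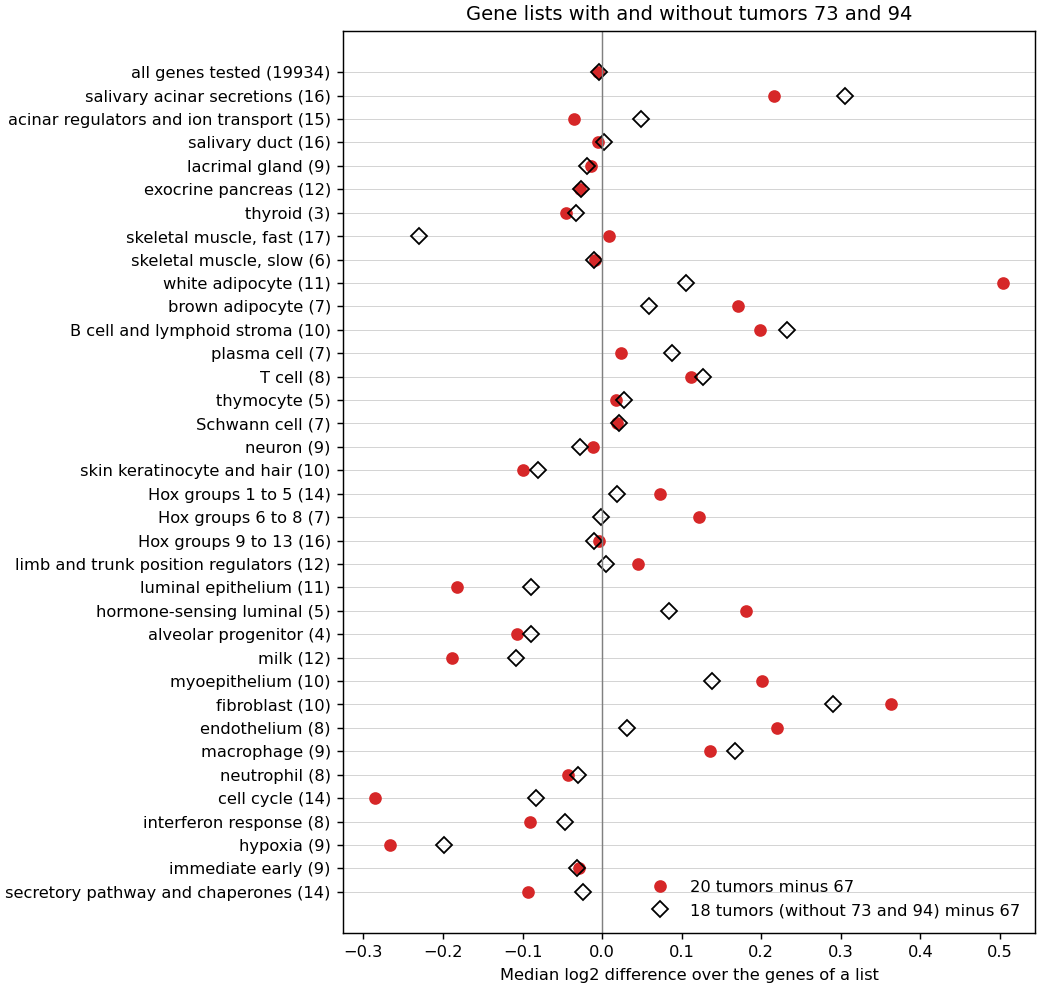
Median log2 difference over the measured genes of each list (horizontal axis, number of genes in brackets), as 20 tumors minus 67 (filled circles) and as 18 tumors minus 67 after tumors 73 and 94 were left out (open diamonds). The white adipocyte list moved most between the settings, with medians of 0.50 and 0.10, and the salivary acinar list stayed on the positive side with 0.22 and 0.31.

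Array quality differed between the groups through the same 2 tumors. Quality was measured as the median absolute deviation of an array's genes from their medians over all tumors. A higher value was read as worse, although a tumor with unlike gene levels also scores higher by this measure. It averaged 0.118 ± 0.044 (SD) in the 20 tumors and 0.102 ± 0.021 in the 67 (permutation test, two-sided p = 0.0371), and 0.105 ± 0.016 in the 18 without tumors 73 and 94 (p = 0.553). Tumor 73 had 0.249 and tumor 94 had 0.228, and the part of array quality in their gene levels was not tested. The label numbers form 2 runs, and tumors 107 to 134 made up 4 of the 20 and 13 of the 67 (Fisher's exact test, two-sided p = 1). In tumors 1 to 106 alone 374 genes were higher and 200 lower. In tumors 107 to 134 alone, with 4 tumors against 13, none passed limma's test, 712 had an unadjusted p under 0.05, and Chia1 differed by 3.24.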

How the data were processed

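The authors deposited log2 values per probe set of 134 arrays (Affymetrix Mouse Gene 1.0 ST), summarised with RMA per the labels (version not given in the sources used here). They were used as deposited. Whether RMA was run on these arrays by themselves is not given in the sources used here. Of 35556 probe sets, 21789 had 1 gene symbol in the array's probe table, and 21698 of these matched RefSeq of GRCm38.p6. A gene with several probe sets (999 of 19938) was read from its brightest probe set. Array medians ran from 6.30 to 6.54, and the median SD of a gene over tumors was 0.19, and precision is limited by the number of arrays.

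The 20 and the 67 tumors were compared with limma 3.58.1 in R 4.3.3 over 19934 genes, the 4 markers left out, with Benjamini-Hochberg adjustment and a threshold of 0.05. All printed adjusted p-values come from this fit unless another test is named. The fit was tested on simulated data. Other values were computed with Python 3.11.15, numpy 2.4.6, pandas 2.3.3 and scipy 1.17.1, and group differences in array quality were tested with 100000 permutations. The genes named were the 15 that rose most and the 15 that fell most among those past the test, the members of the cell type and pathway lists, and the 4 markers. The genes outside this rule were those that passed without tumors 73 and 94, and those of the chromosome 5 stretch and those of tumors 7, 12, 102 and 128, chosen after their values were seen. The tumor sets, markers and lists were chosen with earlier results of these data known. P-values measure the spread between tumors, each from a different animal by its label. Some arrays whose numbers lie 12 apart had correlated profiles, as given in the last paragraph. The fit counted them as independent tumors, so the SEs and p-values may be too small. The alternatives were covariates (run, array quality, muscle or adipocyte genes), each run alone, other tumor sets and marker values, other summaries of probe sets, quantile normalization once more, a filter on dim genes, a rank-sum test, and tumors left out.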

Additional observations from a re-analysis of the deposited data

How the results depend on the processing

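The counts of the 20 against the 67 tumors, 209 higher and 86 lower, depended on the tumors and on the setting. With array quality as a covariate they were 55 and 21, with the white adipocyte score 13 and 1, with the skeletal muscle score 417 and 179, in tumors 1 to 106 alone 374 and 200, in tumors 107 to 134 alone 0 and 0 (447 and 265 at an unadjusted p under 0.05), for the 20 against the other 114 tumors 23 and 0 (1192 and 1118 unadjusted), for the 10 highest tumors 49 and 5, and for the marker value as a continuous covariate 16 and 0 (389 and 390 unadjusted). With mean z-scores of the markers the counts were 557 and 265, with a marker value without Bpifa2 985 and 564, without Smr3a 448 higher, without Amy1 16 and 0 (1004 and 646 unadjusted), after quantile normalization 43 lower, by the rank-sum test 1 and 0 (1141 and 1189 unadjusted), without tumors 73 and 94 18 and 1, without tumors 73, 94 and 128 18 and 1, and without tumors 7, 12, 73, 94, 102 and 128 18 and 3. The settings without named tumors, here and in the report, were chosen after seeing the data. Leaving out each of the 20 tumors in turn, also chosen afterwards, gave 37 to 347 higher and 9 to 187 lower genes. The higher count moved by over 1.5 times without tumors 73 (44), 94 (37), 90 (78), 79 (85), 76 (129), 26 (336), 127 (345) and 72 (347). The lower count did so without tumors 94 (9), 73 (12), 79 (23), 90 (26), 76 (44), 84 (57), 113 (164), 88 (137), 127 (141), 72 (156), 4 (183) and 26 (187). The cause was not tested. Chia1 kept its direction in all 44 alternatives and its call in 43, the exception being tumors 107 to 134 alone. Direction turned for Maob (-0.079 for the 10 highest tumors, -0.014 per unit of the continuous value), Myh11 (-0.11 and -0.018), Sparc (-0.031 and -0.00032) and Cers3 (0.047 in tumors 107 to 134). No paired analysis was possible because each tumor comes from its own animal and the groups share no replicate numbers.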

Other observations

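Tumors 127 and 128 carry neighbouring label numbers and had genes of different salivary glands. Tumor 127, one of the 9, had Bpifa2 at 13.16 and Smgc at 4.22, and tumor 128, one of the 67, had Bpifa2 at 5.14 and Smgc at 8.91. Pip was high in both, at 11.71 in tumor 127 and 11.55 in tumor 128, the highest levels of all tumors. Mucl2 was also high in tumor 93 of the 47, at 9.85, and Prol1 in tumor 27 of the 47, at 8.75.

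The 9 tumors with all markers have 18 neighbours by label number outside their own set. Bpifa2 was above the floor in 6 of these 18 (33.3%) and in 15 of the 107 remaining tumors (14.0%). Chia1 was above the floor in 1 of the 18 and 2 of the 107, Amy1 in 1 (5.56%) and 6 (5.61%), Smr3a in 0 and 4, and Cst10 in 0 of either. What the order of label numbers stands for is not given in the sources used here.

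Among arrays whose numbers lie 12 apart (97 to 108 with 109 to 120), tumors 113 and 101 had gene profiles with a Pearson r of 0.502 across genes. Tumor 113 is one of the 9, and tumor 101 followed the 9 in marker value. They may not be independent replicates, although their labels give different animals, and a shared source was not tested. The 12 pairs that lie 12 apart had an r between -0.05 and 0.785, with 0.206 for tumor 111, one of the 20, and tumor 99. The other 132 pairs of these arrays had a median r of 0.0567 and a highest r of 0.448. Bpifa2 was at 12.65 in tumor 113 and 10.70 in tumor 101, and Chia1 at 10.32 and 6.92.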
